A study of Mus musculus with 8 samples.

Results

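The genes described here are 10 receptors and co-receptors of the transforming growth factor-β (TGF-β) and bone morphogenetic protein (BMP) family, namely Tgfbr1, Tgfbr2, Tgfbr3, Acvrl1, Eng, Bmpr2, Bmpr1a, Acvr1, Acvr1b and Acvr2a. They were taken by gene symbol from a table of estimated counts for 22597 genes, and all 10 passed the filter on low counts. The 8 libraries hold polyadenylated RNA of lung interstitial macrophages, which lie in the tissue outside the air spaces, from female C57BL/6 mice. Recipients were CD45.1/CD45.2 IMDTR mice, also called Cx3cr1-DTR in the labels, in which diphtheria toxin deletes interstitial macrophages; they were irradiated with the thorax shielded, so host lung cells other than those the toxin deletes could remain. The Tgfbr2_KO group (4 libraries, KO 1 to KO 4) received CD45.2 marrow from Lyz2Cre Tgfbr2 fl/fl donors, in which Cre is expressed from Lyz2 in myeloid cells. The WT group (4 libraries, WT 1 to WT 4) received CD45.2 marrow from Tgfbr2 fl/fl donors, so both groups carry the floxed allele and only the first carries Cre. After 1 month every recipient was given 50 ng of diphtheria toxin, and macrophages were sorted 10 days later. The protocol gives 18 weeks as the age at irradiation, whereas the sample labels give 12 to 16 weeks. Whether the sort separated donor from host cells is not stated. Separate mice are not named for the libraries either, and p-values here therefore reflect the spread between libraries alone, which may be technical.

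TGF-β binds the type II receptor Tgfbr2, a kinase that then phosphorylates and switches on the type I receptor Tgfbr1, which in turn activates Smad proteins. BMPs and activins use the same scheme with other pairs. Bmpr2 and Acvr2a are type II receptors, while Bmpr1a, Acvr1, Acvr1b and Acvrl1 are type I receptors. Tgfbr3 (betaglycan) and Eng (endoglin) are co-receptors that present ligand. Acvrl1, Eng and Bmpr2 form the BMP9 and BMP10 receptor of vascular endothelium and are known for their high expression in lung vessels.

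The bases just before the starts of Tgfbr1, Tgfbr2 and Eng are shown because these genes had the 3 main patterns described below. Tgfbr1 was lower in Tgfbr2_KO, Tgfbr2 overlapped between genotypes, and Eng was far higher in the 3 libraries rich in endothelial RNA. The sequences are from RefSeq (GRCm38.p6), 250 bases each, 5′ to 3′ on the strand of the gene, ending 1 base before the start. They lie at chr4:47352972-47353221 (plus strand), chr9:116175364-116175613 (minus strand) and chr2:32646345-32646594 (plus strand). Capitals mark GGGCGG (the GC box), CCAAT and AGGAAG (an ETS-type motif) on either strand.
Tgfbr1: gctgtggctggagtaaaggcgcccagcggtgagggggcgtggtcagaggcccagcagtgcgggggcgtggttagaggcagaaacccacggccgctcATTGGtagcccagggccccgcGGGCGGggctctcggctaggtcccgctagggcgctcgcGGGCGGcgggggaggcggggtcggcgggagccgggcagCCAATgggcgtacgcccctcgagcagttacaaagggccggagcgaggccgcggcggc
Tgfbr2: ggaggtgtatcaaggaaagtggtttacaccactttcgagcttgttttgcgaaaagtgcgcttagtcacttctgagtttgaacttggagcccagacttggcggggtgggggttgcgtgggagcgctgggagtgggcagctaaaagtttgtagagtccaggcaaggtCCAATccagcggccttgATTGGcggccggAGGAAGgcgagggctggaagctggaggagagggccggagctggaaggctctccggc
Eng: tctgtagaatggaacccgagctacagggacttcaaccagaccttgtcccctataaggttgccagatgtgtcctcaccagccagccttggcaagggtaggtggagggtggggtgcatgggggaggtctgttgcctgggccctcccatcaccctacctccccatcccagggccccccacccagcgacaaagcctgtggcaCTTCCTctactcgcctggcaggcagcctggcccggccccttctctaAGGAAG
Upstream of Tgfbr1 there were 2 GC boxes and 2 CCAAT motifs, with no AGGAAG. Tgfbr2 had 2 CCAAT motifs and 1 AGGAAG, with no GC box. Eng had 2 AGGAAG motifs and neither of the others. The Smad box CAGAC, not capitalised, was present 1 time before Tgfbr2 and 2 times before Eng, and TATAAA was in none of these windows. None of the capitalised matches overlapped one another. Of 32851 such windows of the same length, 32.7% held GGGCGG, 33.8% CCAAT, 29.5% AGGAAG, 42.2% CAGAC and 12.4% TATAAA, so each match is of a common kind. Windows were matched for 8 of the 10 genes, all but Acvrl1 and Tgfbr3, and 2 starts are listed for Tgfbr1, of which the one at the annotated gene start is shown.

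Total counts ran from 15597300 (WT 1) to 37654100 (WT 4) per library, and 3 counts were worth 0.0844 to 0.177 CPM. Levels are given as TMM-scaled CPM, which are counts scaled to a common library total. WT 1, WT 2 and KO 1 held far more RNA of lung structural cells than the other 5 libraries and are called lung-rich below. The summed level of 21 endothelial markers was 3810 to 7490 CPM in these 3 libraries and 282 to 384 CPM in the other 5, and each of the 21 was higher in every lung-rich library than in every other one. The same held for 13 of 16 epithelial and 15 of 15 fibroblast and mural markers. The summed level of 12 macrophage markers was 9490 to 14400 CPM in the lung-rich libraries and 19300 to 21300 CPM in the others, with none of the 12 at 0 in any library. KO 1 had the highest endothelial sum (7490 CPM) and the lowest macrophage sum (9490 CPM). Of 6 alveolar macrophage markers the sum was 19.96 to 27.3 CPM in Tgfbr2_KO, and 23.6 and 40.9 CPM in WT 1 and WT 2 but 377 and 380 CPM in WT 3 and WT 4. Of 4 platelet markers it was 244 to 494 CPM in Tgfbr2_KO and 140 to 200 CPM in WT. The platelet sum did not overlap between genotypes. The alveolar macrophage sum did, with WT 1 inside the Tgfbr2_KO range, and was far higher only in WT 3 and WT 4. The part of both lists in the results below was not tested. The lung-rich libraries were 1 of Tgfbr2_KO and 2 of WT. They were set apart by their values and are not groups of the study. Results are therefore shown for all 8 libraries, for each set alone, and for a model of all 8 that includes the set (the set-term fit). WT 3 and WT 4 differed little, by 1.87 times counting noise (median chi-square over genes), beside 2.06 to 3.08 times among KO 2, KO 3 and KO 4 and 4.29 times for WT 1 and WT 2. The excess over noise led to their use as separate libraries, but it does not show that they came from separate mice. The same holds for KO 2 to KO 4, which no fit summed. The p-values of the 5 other libraries alone rest on these small differences, which may be technical.

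Over all 8 libraries, none of the 10 receptors passed the threshold of 0.05 between genotypes (edgeR quasi-likelihood test, Benjamini-Hochberg adjusted over 12750 genes), where 0.298% of all tested genes did (0.196% higher and 0.102% lower). At an unadjusted p under 0.05 there were 2 of the 10, Tgfbr1 and Acvr1, against 10.4% of all genes. DESeq2 called 1 of them, Tgfbr1, as lower (1.41% of all genes) and 0 as higher (2.72%), and limma-voom called 0. With the library set as a term, 1 receptor fell (Tgfbr1), 1 rose (Tgfbr3) and 8 did not pass, against 7.89% of all tested genes lower and 8.59% higher. The median log2 fold change of the 10 was -0.16 with group only and -0.06 with the set term, beside -0.01 and 0.03 over all tested genes. In the 5 other libraries 4 receptors fell (Tgfbr1, Acvrl1, Bmpr2 and Acvr1b) and 1 rose (Tgfbr3), where 38.5% of all tested genes were called, 18.7% lower and 19.7% higher. In the 3 lung-rich libraries Tgfbr1 was called lower and Tgfbr3 higher, where 5.11% were called, 1.95% lower and 3.16% higher, and 8 receptors had an unadjusted p under 0.05 against 22.8% of all genes. KO 1 is the only Tgfbr2_KO library there, so those tests assume that it varies as WT 1 and WT 2 do.

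Tgfbr2 (ENSMUSG00000032440, GRCm38 chromosome 9, 116084293 to 116175360, minus strand), the gene targeted by Cre, was at 424, 576, 529 and 539 CPM in KO 1 to KO 4 and at 548, 474, 546 and 542 CPM in WT 1 to WT 4. The genotypes overlapped, and KO 1 was the lowest library of all. Its group-only log2 fold change was -0.03 (95% interval -0.30 to 0.24), and -0.09 with the set term (95% interval -0.27 to 0.09, edgeR adjusted p = 0.488). In the 5 other libraries the interval of the log2 fold change was -0.06 to 0.08. In the lung-rich libraries the value was -0.33 (edgeR adjusted p = 0.218), and the difference between the sets did not pass (interaction -0.28, SE 0.10, edgeR adjusted p = 0.0869). The counts are summed over the gene and the floxed exons are not named in the labels, so RNA that lacks them would still be counted and the total does not check the deletion. Lyz2, the gene that carries Cre, was at 3440 to 5611 CPM in Tgfbr2_KO and at 7285 to 13190 CPM in WT, with no overlap. Only the Tgfbr2_KO donors carry Cre in this gene, and the part of that allele in the Lyz2 difference was not tested.

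Tgfbr1 (ENSMUSG00000007613, chromosome 4, 47353222 to 47414931, plus strand), the type I partner of Tgfbr2, was at 194, 285, 304 and 295 CPM in KO 1 to KO 4 and at 405, 507, 675 and 647 CPM in WT 1 to WT 4. Every Tgfbr2_KO library lay below every WT library. In bulk RNA, fewer cells that express a gene and less of its RNA per cell cannot be told apart. KO 1 held 42.6% of the mean of WT 1 and WT 2, and KO 2 to KO 4 held on average 44.5% of the mean of WT 3 and WT 4. The difference between these sets, as an interaction, was -0.07 (95% interval -0.40 to 0.26, edgeR adjusted p = 0.797). With group only its log2 fold change was -1.05 and did not pass (edgeR adjusted p = 0.122, SE 0.21). The set-term value was -1.19 and passed (edgeR adjusted p = 0.000176, SE 0.08). Among the 5 other libraries it stood at -1.16 (edgeR adjusted p = 1.14e-15), and at -1.30 in the lung-rich ones, where KO 1 is alone (edgeR adjusted p = 0.0231). With the set term Tgfbr1 passed in 8 of 8 fits that each left out 1 library, with log2 fold changes of -1.24 to -1.14. It also passed when WT 3 and WT 4 were summed (edgeR adjusted p = 0.00262). Within each genotype Tgfbr1 was lower in lung-rich libraries, at 0.66 times the other Tgfbr2_KO libraries and 0.69 times the other WT libraries, as was the macrophage receptor gene Csf1r (0.497 and 0.794 times).

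**Figure D1:**
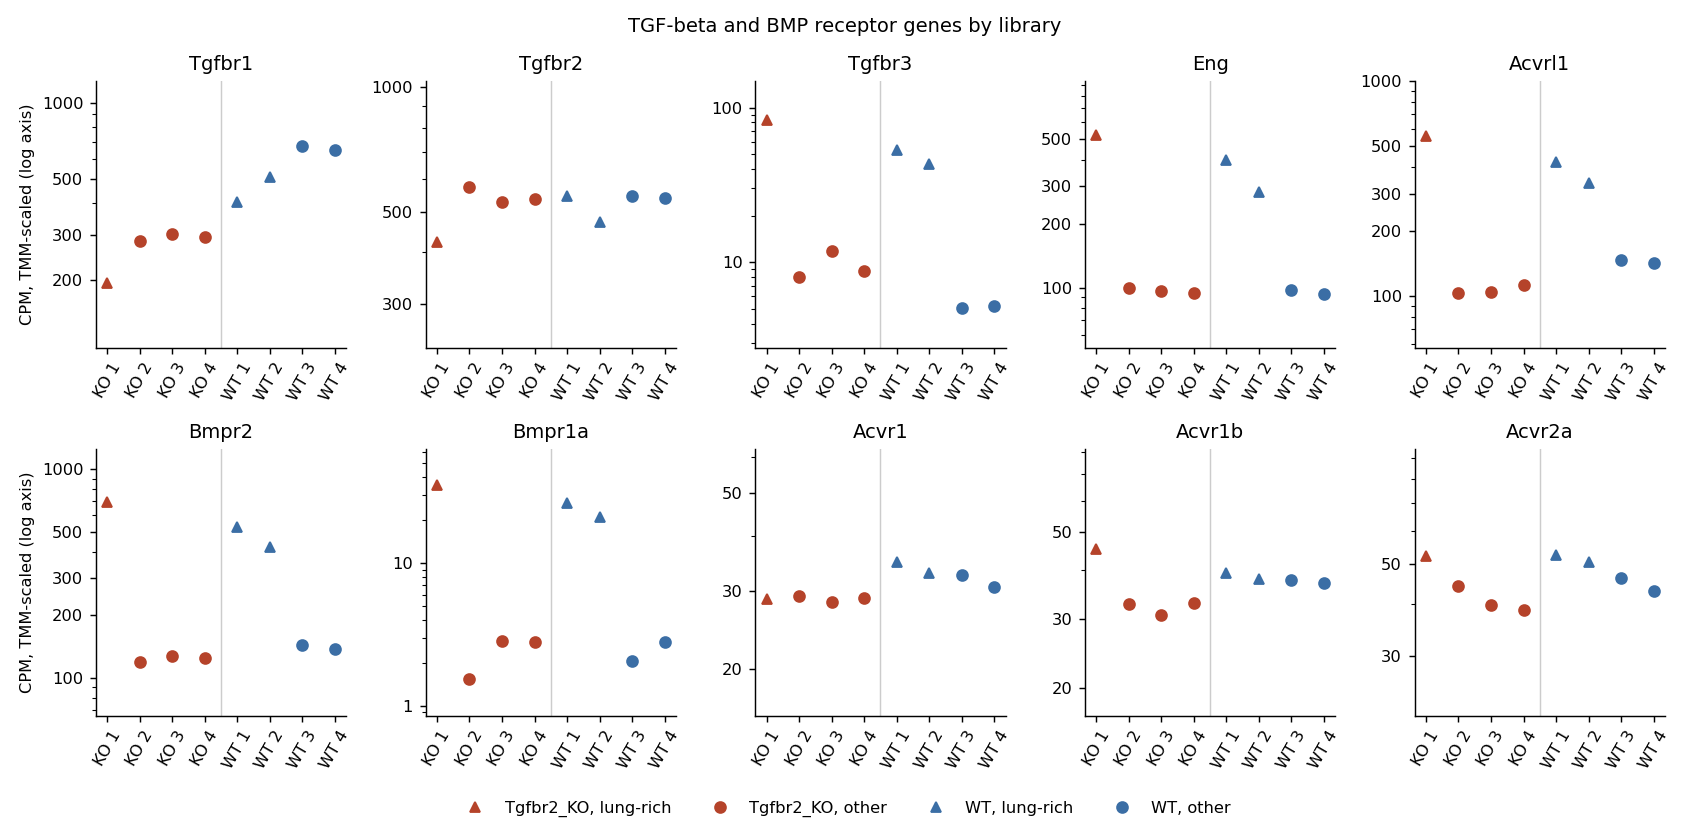
CPM of the 10 receptor genes (log axis, a range of its own in each panel) in each library, Tgfbr2_KO left of WT, with triangles for the lung-rich libraries KO 1, WT 1 and WT 2 and circles for the other 5. Tgfbr1 is lower in every Tgfbr2_KO library, Tgfbr3, Eng, Acvrl1, Bmpr2 and Bmpr1a are highest in the 3 triangles, and Tgfbr2, Acvr1, Acvr1b and Acvr2a vary little.

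The ratio of Tgfbr1 to Tgfbr2 counts within a library does not depend on scaling. It was 0.458, 0.494, 0.575 and 0.548 in KO 1 to KO 4 and 0.74, 1.07, 1.24 and 1.19 in WT 1 to WT 4. No Tgfbr2_KO library reached the lowest WT library. The mean log2 ratio was -0.95 ± 0.15 in Tgfbr2_KO and 0.06 ± 0.34 in WT (SD, n = 4 each), a difference of -1.01 with a two-sided exact permutation p = 0.0286, the smallest that 4 against 4 allows. Permuting within the library sets gave p = 0.0333, the smallest that those 30 arrangements allow (exact permutation test). Relative to Csf1r, Tgfbr1 was at 0.0948 to 0.129 in Tgfbr2_KO and 0.188 to 0.254 in WT, again without overlap. Tgfbr2 relative to Csf1r was at 0.172 to 0.281 in Tgfbr2_KO and 0.203 to 0.254 in WT, which overlapped.

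**Figure D2:**
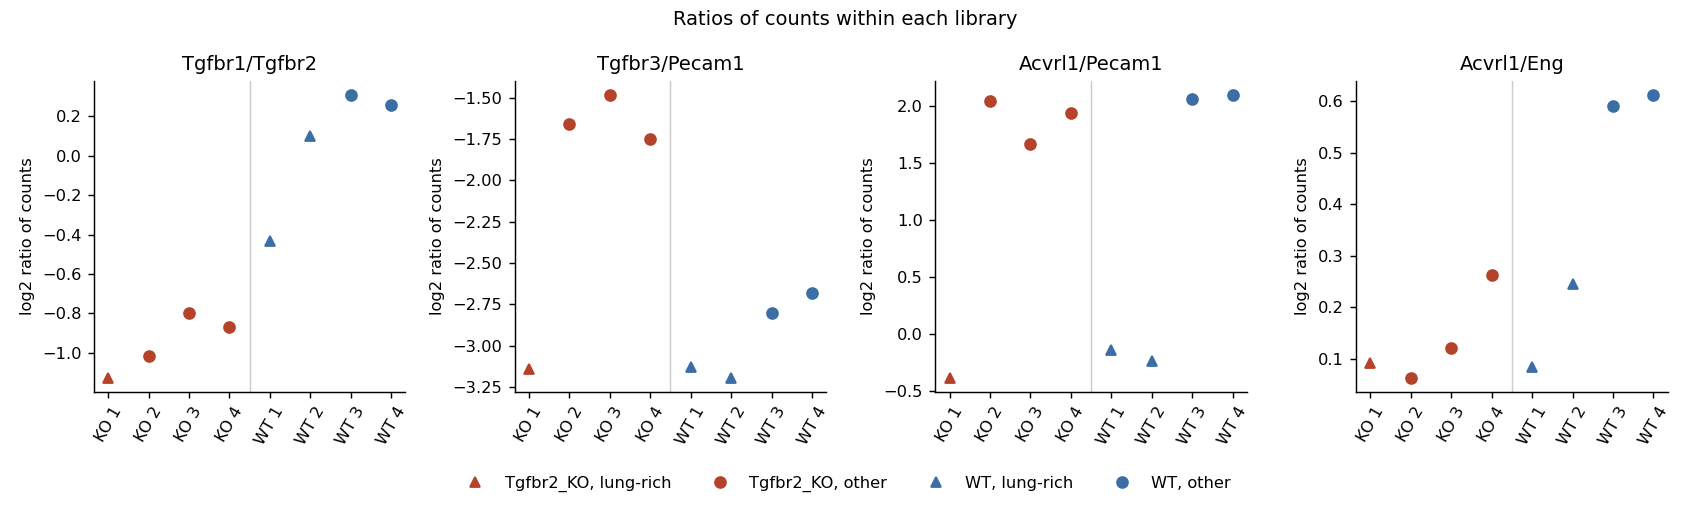
log2 ratio of counts of a pair of genes within each library, Tgfbr2_KO left of WT, triangles for lung-rich libraries. Tgfbr1/Tgfbr2 is lower in all 4 Tgfbr2_KO libraries; Tgfbr3/Pecam1 is much alike in the 3 lung-rich libraries and higher in KO 2 to KO 4 than in WT 3 and WT 4; Acvrl1/Pecam1 is low in the lung-rich libraries of both genotypes; Acvrl1/Eng is highest in WT 3 and WT 4.

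Among the co-receptors, Tgfbr3 (ENSMUSG00000029287, chromosome 5, 107106570 to 107289629, minus strand) was at 82.4, 7.96, 11.8 and 8.80 CPM in KO 1 to KO 4 and at 53.3, 43.2, 5.03 and 5.23 CPM in WT 1 to WT 4. It was lowest in WT 3 and WT 4. The Tgfbr2_KO libraries of each set lay above the WT libraries of that set, as for 14.8% of all tested genes. In the 5 other libraries this rests on 160 to 232 counts in KO 2 to KO 4 and 98 and 186 counts in WT 3 and WT 4. In the set-term fit Tgfbr3 rose by 0.84 on the log2 scale (SE 0.13, edgeR adjusted p of 0.00542), and the value was 0.89 among the 5 other libraries (edgeR adjusted p = 0.000277) and 0.71 in the lung-rich ones (edgeR adjusted p = 0.0386, with KO 1 as the only Tgfbr2_KO library). It passed in 8 of 8 set-term fits without 1 library (0.71 to 0.90), but not in the set-term fit with a replicate block (0.84, edgeR adjusted p = 0.0729). With the endothelial sum as a term in place of the set it was 0.68 and did not pass (edgeR adjusted p = 0.0519). In the lung-rich libraries the endothelial adhesion gene Pecam1 differed by as much (KO 1 at 1.69 times WT 1 and WT 2, against 1.71 times for Tgfbr3), and the Tgfbr3 to Pecam1 ratio was 0.114 in KO 1 and 0.114 and 0.109 in WT 1 and WT 2. In the 5 other libraries Pecam1 was at 85.2% of WT (-0.23 on the log2 scale, edgeR adjusted p = 0.0814) while Tgfbr3 was at 186%, and the ratio was 0.298 to 0.357 in KO 2 to KO 4 and 0.143 and 0.156 in WT 3 and WT 4.

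Eng (ENSMUSG00000026814, chromosome 2, 32646595 to 32682669, plus strand) was at 522, 99.1, 96.3 and 94.2 CPM in KO 1 to KO 4 and at 398, 282.5, 97.5 and 93.7 CPM in WT 1 to WT 4. The 5 other libraries lay between 93.7 and 99.1 CPM, with the genotypes mixed, and the lung-rich ones were all far above them. The log2 fold change in the 5 other libraries was 0.02 (95% interval -0.07 to 0.11, edgeR adjusted p = 0.755). The set-term value was 0.24 (edgeR adjusted p = 0.304, SE 0.14). In the lung-rich libraries KO 1 was 1.54 times WT, beside 1.69 times for Pecam1.

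Acvrl1 (ENSMUSG00000000530, chromosome 15, 101128522 to 101145336, plus strand), the type I receptor that pairs with Eng, was at 556, 104, 105 and 113 CPM in KO 1 to KO 4 and at 422, 335, 147 and 143 CPM in WT 1 to WT 4. KO 1 was the highest library, while KO 2 to KO 4 were the lowest. In the 5 other libraries it fell in Tgfbr2_KO, to 73.9% of WT (log2 fold change -0.44, SE 0.04, edgeR adjusted p = 9.54e-08), where 18.7% of all tested genes were called lower. In the lung-rich libraries the value was 0.49 (edgeR adjusted p = 0.123), and the genotype difference itself differed between the sets (interaction 1.00, SE 0.15, edgeR adjusted p = 0.00305), as it did for 18.9% of all tested genes and for Pecam1 (interaction 0.99, edgeR adjusted p = 0.012). Over all libraries with the set term the value was -0.07 (edgeR adjusted p = 0.84). With the endothelial sum as a term in place of the set it was -0.09 (edgeR adjusted p = 0.554). Without KO 1 the set-term value was -0.44 (edgeR adjusted p = 0.00889). That fit has no Tgfbr2_KO library in the lung-rich set, so it repeats the comparison within the 5 other libraries. Acvrl1 to Pecam1 ratios were 3.17 to 4.13 in KO 2 to KO 4. They were 4.18 and 4.27 in WT 3 and WT 4. Acvrl1 to Eng ratios were 1.04 to 1.20 in KO 2 to KO 4 and 1.51 and 1.53 in WT 3 and WT 4, whereas in the lung-rich libraries they were 1.07 in KO 1 and 1.06 and 1.18 in WT 1 and WT 2. The alveolar macrophage, endothelial, epithelial, monocyte and neutrophil marker sums were also higher in WT 3 and WT 4 than in KO 2 to KO 4. Those of macrophages, lymphocytes, dendritic cells and platelets were lower, and the fibroblast and mural sum overlapped. The part of these cell types in the Acvrl1 difference was not tested.

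Bmpr2 (ENSMUSG00000067336, chromosome 1, 59763400 to 59879014, plus strand), the type II receptor of that complex, was at 693.5, 118, 127 and 124.5 CPM in KO 1 to KO 4 and at 526, 422.5, 143 and 138 CPM in WT 1 to WT 4. KO 2 to KO 4 were lower than WT 3 and WT 4 by a small margin (-0.19 on the log2 scale, SE 0.04, edgeR adjusted p = 0.00113). Of all tested genes 18.7% were called lower there. Bmpr2 was at 87.6% of WT in these libraries, beside 85.2% for Pecam1. Bmpr2 to Pecam1 ratios overlapped, at 3.83 to 4.72 in KO 2 to KO 4 and 4.09 and 4.11 in WT 3 and WT 4. KO 1 was 1.46 times WT 1 and WT 2. The interaction was 0.74 (SE 0.14, edgeR adjusted p = 0.00767), in a test that called 18.9% of all tested genes. In the set-term fit the value was 0.08 (edgeR adjusted p = 0.738). With the endothelial sum as a term in place of the set it was 0.05 (edgeR adjusted p = 0.525). Bmpr1a (ENSMUSG00000021796, chromosome 14, 34410734 to 34503341, minus strand), a type I receptor for BMPs, was at 35.0, 1.54, 2.86 and 2.81 CPM in KO 1 to KO 4 and at 26.6, 21.2, 2.05 and 2.81 CPM in WT 1 to WT 4. The 5 other libraries held only 37 to 100 counts of it, and their interval for the log2 fold change, -0.64 to 0.52, leaves a difference of that size undetectable. With the set term it was 0.25 (SE 0.22, edgeR adjusted p = 0.479).

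**Figure D3:**
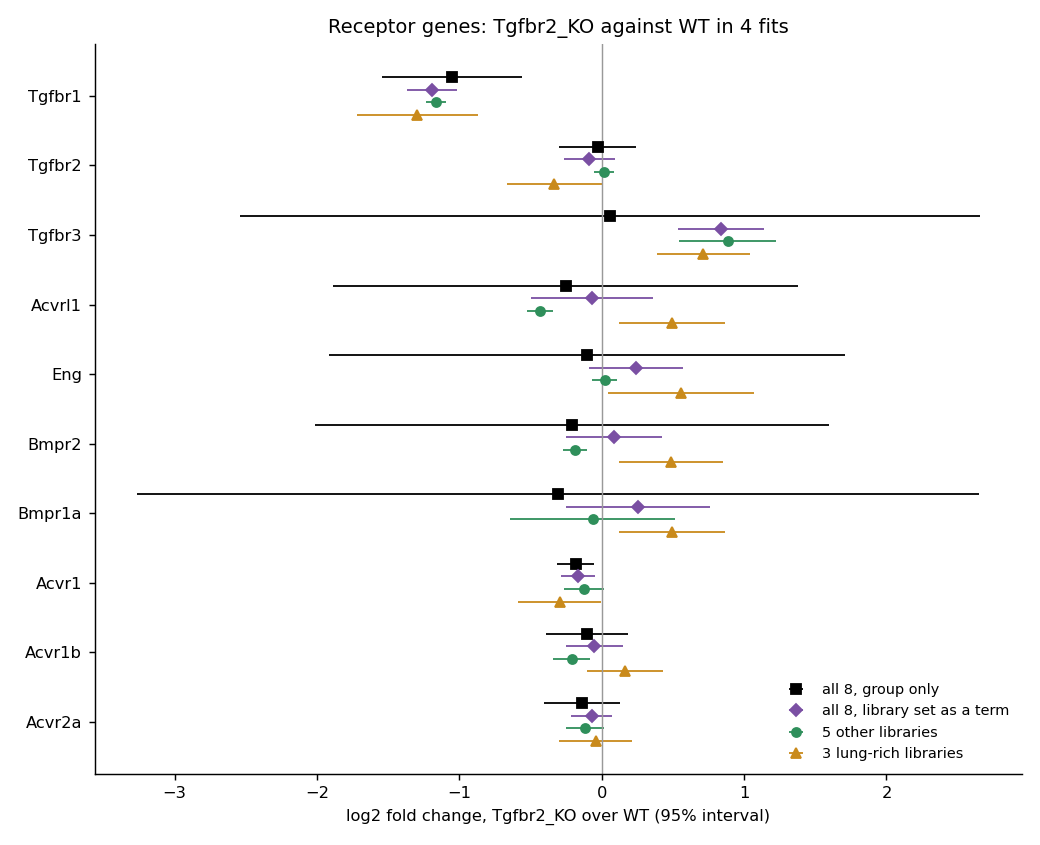
log2 fold change of Tgfbr2_KO over WT with its 95% interval for each receptor gene in 4 edgeR fits, which are all 8 libraries by group only, all 8 with the library set as a term, the 5 other libraries and the 3 lung-rich ones. Tgfbr1 lies between -1.30 and -1.05 in the 4 fits, and Acvrl1 and Bmpr2 lie on opposite sides of 0 in the 2 sets.

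The activin and related receptors were at 28.3 to 52.6 CPM in all libraries. Acvr1 (ENSMUSG00000026836, chromosome 2, 58388644 to 58567157, minus strand), a type I receptor for BMPs and activins, was at 28.8, 29.3, 28.3 and 29.0 CPM in KO 1 to KO 4 and at 34.8, 32.9, 32.6 and 30.7 CPM in WT 1 to WT 4. The genotypes did not overlap, with a mean of 28.9 ± 0.38 CPM in Tgfbr2_KO and 32.8 ± 1.69 CPM in WT (SD, n = 4 each), but the difference did not pass (edgeR adjusted p = 0.27 for -0.18 on the log2 scale, SE 0.06; set-term fit 0.0681). With library totals only in place of TMM, KO 1 (32.2 CPM) lay above WT 3 and WT 4 (30.9 and 29.0 CPM), so that the genotypes of Acvr1 overlapped, while those of Tgfbr1 did not. With TMM, Acvr1 and Tgfbr1 were the 2 of 10 receptors that were lower in every Tgfbr2_KO library than in every WT library, a pattern found in 2.71% of tested genes; 0 receptors were higher in every Tgfbr2_KO library, against 4.19%, and 6.9% of genes did not overlap in either direction. Acvr1b (ENSMUSG00000000532, chromosome 15, 101174067 to 101213684, plus strand), the type I receptor for activins, was at 45.2, 32.9, 30.7 and 33.0 CPM in KO 1 to KO 4 and at 39.4, 37.9, 37.8 and 37.0 CPM in WT 1 to WT 4. It fell in the 5 other libraries by 0.21 on the log2 scale (SE 0.06, edgeR adjusted p = 0.012), while KO 1 was the highest of all, and the sets differed (interaction 0.44, SE 0.10, edgeR adjusted p = 0.0122). Acvr2a (ENSMUSG00000052155, chromosome 2, 48814109 to 48903269, plus strand), a type II receptor for activins, was at 52.3, 44.2, 39.8 and 38.7 CPM in KO 1 to KO 4 and at 52.6, 50.4, 46.3 and 43.0 CPM in WT 1 to WT 4. In the set-term fit its log2 fold change was -0.07 (95% interval -0.21 to 0.07, edgeR adjusted p = 0.48).

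The receptors differed in how far their level followed structural RNA. Lung-rich libraries were all higher than all other libraries for 7 of the 10 receptors, against 28.1% of tested genes; the exceptions were Tgfbr1, Tgfbr2 and Acvr1. The count was 6 with DESeq2's size factors, without Acvr1b, and 8 with library totals only, with Acvr1. The level in KO 1 over that in KO 2 to KO 4 was 14.6 times for Bmpr1a, 8.65 for Tgfbr3, 5.63 for Bmpr2, 5.41 for Eng and 5.20 for Acvrl1, but 1.4 for Acvr1b and 1.28 for Acvr2a. In WT the same comparison gave 9.81 times for Bmpr1a, 9.40 for Tgfbr3, 3.37 for Bmpr2, 3.56 for Eng, 2.61 for Acvrl1, 1.03 for Acvr1b and 1.15 for Acvr2a. Pecam1 stood at 24.8 times in Tgfbr2_KO and 12.6 times in WT, and the endothelial cadherin gene Cdh5 at 26.9 and 14.1 times. All 10 receptors had lower ratios than these markers in both genotypes. The Eng to Pecam1 ratio was 0.719 in KO 1 and 0.853 and 0.716 in WT 1 and WT 2, against 2.91 to 3.95 in KO 2 to KO 4 and 2.78 and 2.80 in WT 3 and WT 4. Eng, Acvrl1 and Bmpr2 RNA was thus at 93.7 to 147 CPM in libraries where Pecam1 was at 25.1 to 35.1 CPM. Bmpr1a kept closer to Pecam1, with a ratio of 0.0482 to 0.095 in Tgfbr2_KO and 0.0536 to 0.0839 in WT. Epithelial and fibroblast markers were high in the same 3 libraries, and the part of each cell type in these levels was not tested.

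**Figure D4:**
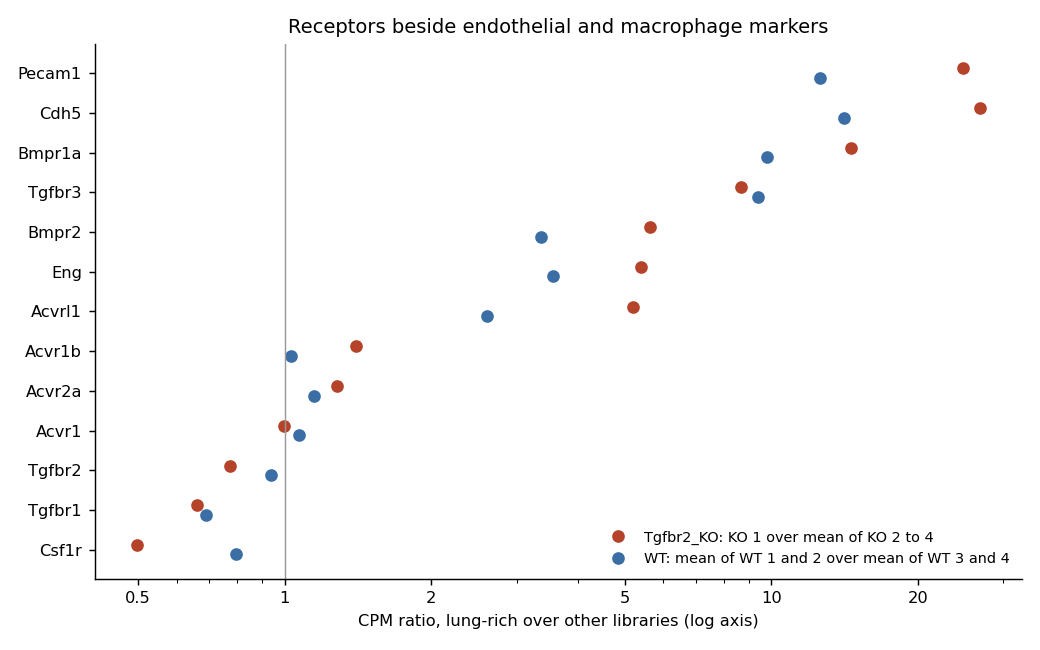
Ratio of CPM in lung-rich over other libraries (log axis) for the receptors, the endothelial markers Pecam1 and Cdh5 and the macrophage marker Csf1r, Tgfbr2_KO above WT in each row. Bmpr1a, Tgfbr3, Bmpr2, Eng and Acvrl1 lie between 2.61 and 14.6 times, below the endothelial markers, and Tgfbr1 and Tgfbr2 lie below 1 with Csf1r.

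Levels of different genes were compared as CPM per kb of annotated exon (union of GENCODE M21 exons). In KO 2 to KO 4, Tgfbr2 was highest at 66.9 ± 3.01 CPM per kb, followed by Tgfbr1 at 45.1 ± 1.5, Acvrl1 at 25.1 ± 1.2 and Eng at 23.8 ± 0.609 (SD, n = 3). In WT 3 and WT 4, Tgfbr1 led at 103 and 99.1 CPM per kb, above Tgfbr2 at 66.6 and 66.2, Acvrl1 at 34.4 and 33.6 and Eng at 24.1 and 23.2. The order of Tgfbr1 and Tgfbr2 was therefore opposite between genotypes in these libraries, while Acvrl1 and Eng lay within their spread in KO 2 to KO 4 and apart in WT 3 and WT 4. Acvr1b, Acvr2a, Bmpr2 and Acvr1 formed a lower tier of 5.98 to 7.28 CPM per kb on average in KO 2 to KO 4 and 6.55 to 8.46 in WT 3 and WT 4. Acvr1b, Acvr2a and Bmpr2 overlapped in KO 2 to KO 4, as did Acvr2a and Bmpr2 in WT 3 and WT 4, and Acvr1 lay below these 3 in both genotypes. Tgfbr3 was at 1.46 CPM per kb in KO 2 to KO 4 and 0.784 in WT 3 and WT 4, and Bmpr1a was last at 0.378 and 0.383. Counted per kb of the longest transcript the order of this tier changed. Bmpr2 led it at 9.55 CPM per kb in KO 2 to KO 4 and 10.9 in WT 3 and WT 4, and Acvr1, at 8.76 and 9.61, stood above Acvr1b (7.28 and 8.46) and Acvr2a (7.19 and 7.85).

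The genes whose log2 CPM followed a receptor most closely over the 8 libraries were found by the root mean square (RMS) difference of centred values, among 12376 genes. For Tgfbr1 they were Usp2, a deubiquitinase gene (RMS difference 0.07), Lyz2 (0.10) and Itgb5, the integrin β5 chain (0.11), with Tgfbr1 itself having an SD of 0.63 on this scale. For Eng the list held Agrn, Adrb1 and Bmpr2 (0.09 to 0.10), for Bmpr2 it held Cav2, Tspan13 and Eng (0.07 to 0.10), and for Acvrl1 it held Ppm1l, Cav2 and Arl15 (0.09 to 0.11). Bmpr2 and Eng were thus each among the 3 nearest genes of the other. The nearest genes of Tgfbr3 were Gimap3, Epn2 and Aff3, with set-term log2 fold changes of 0.73 to 0.93. Those of Bmpr1a were Rbms3, St6galnac3 and Hoxa3. For receptors that varied little (SD 0.11 to 0.18), namely Tgfbr2, Acvr1, Acvr1b and Acvr2a, the nearest genes were Fam98c, Fbxw11 and Recql5, then Tab3 and Bicral, then Luc7l, Zfp830 and Sec23ip, and then Hadh, Cables2 and Dph3.

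In the rest of the pathway, 74 other genes were listed and 57 were tested. With group only, 3 fell (Pmepa1, Tmem119 and Smurf1), 0 rose and 54 did not pass, where 0.102% of all tested genes fell and 0.196% rose. At an unadjusted p under 0.05 there were 13 of the 57, against 10.4% of all genes. DESeq2 called 7 lower and 4 higher, against 1.41% and 2.72% of all genes. The edgeR adjusted p-values with group only were 0.0314 (Pmepa1), 0.0289 (Tmem119) and 0.035 (Smurf1). With the set term 10 fell and 8 rose, where 16.5% of all tested genes were called. Among 8 tested other receptors and co-receptors, Nrp1, a semaphorin and VEGF co-receptor that also binds TGF-β, rose in the set-term fit (log2 fold change 0.33, SE 0.06, edgeR adjusted p = 0.0085). The endocytic receptor gene Lrp1 fell by 0.30 on the log2 scale (SE 0.07, edgeR adjusted p = 0.0207). The type II activin receptor gene Acvr2b had 3.57 to 6.75 CPM in Tgfbr2_KO and 3.23 to 5.80 CPM in WT and did not pass. The type I receptor genes Bmpr1b and Acvr1c, the anti-Müllerian hormone receptor gene Amhr2 and the BMP co-receptor gene Hjv were too low to be tested, at no more than 1.32 CPM in Tgfbr2_KO and 0.769 CPM in WT.

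Of 9 tested ligand genes, 2 rose and 1 fell with the set term, against 8.59% and 7.89% of all tested genes. Tgfb3, a ligand of Tgfbr2, was at 20.8 to 25.2 CPM in Tgfbr2_KO and at 24.5, 44.8, 61.8 and 60.4 CPM in WT 1 to WT 4 (log2 fold change -1.11, SE 0.19, edgeR adjusted p = 0.00853). Bmp5 and Gdf15 had set-term log2 fold changes of 0.47 each (edgeR adjusted p = 0.0388 and 0.0408). Bmp5 was at 30.2 CPM in KO 1 and at 22.0 and 18.1 CPM in WT 1 and WT 2. In the 5 other libraries it was at only 1.69 to 2.475 CPM, and its group-only log2 fold change was -0.24. Gdf15 was at 32.5 to 58.0 CPM in Tgfbr2_KO and 23.3 to 36.6 CPM in WT. Of 6 tested secreted inhibitors, Crim1, which binds BMPs, rose with the set term, at 42.6 to 165 CPM in Tgfbr2_KO and 27.4 to 117.5 CPM in WT (log2 fold change 0.61, SE 0.06, edgeR adjusted p = 0.000731). None of 5 tested Smad genes that carry the signal passed in either fit. Of all tested genes 0.298% passed with group only and 16.5% with the set term. At an unadjusted p under 0.05 there were 0 of the 5 in both edgeR fits, against 10.4% and 30.7% of all genes. DESeq2 called 0, against 2.72% of all genes higher and 1.41% lower. With only 5 genes, 0 calls do not show that the Smad genes were unchanged.

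Among 16 regulators of the receptors, 2 fell with group only (Pmepa1 and Smurf1), against 0.102% of all tested genes. With the set term 5 fell and 3 rose, against 7.89% and 8.59%. Pmepa1, which restrains Smad activation, was at 49.0, 61.0, 60.1 and 58.2 CPM in KO 1 to KO 4 and at 107, 109, 148 and 141 CPM in WT 1 to WT 4 (set-term log2 fold change -1.22, SE 0.05, edgeR adjusted p = 3.37e-05). Smurf1, a ubiquitin ligase that targets receptors and Smads, was at 77.3 to 81.3 CPM in Tgfbr2_KO and 101 to 102 CPM in WT. Ldlrad4, another Smad inhibitor, fell with the set term by 0.42 on the log2 scale (edgeR adjusted p = 0.00302). Fkbp1a, which binds type I receptors and keeps them silent, rose by 0.36 with the set term (SE 0.05, edgeR adjusted p = 0.00411), at 146 to 271 CPM in Tgfbr2_KO and 120.5 to 202.5 CPM in WT. The 10 TGF-β target genes included Pmepa1, Ldlrad4, Smad7 and Skil of the regulator list. Of these 10, 2 fell with group only and 6 with the set term, against 0.102% and 7.89% of all tested genes, and 0 rose. The list was chosen with earlier results of these data known, so these counts are not an independent test. The 6 included Tgfbi and Tmem119 (log2 fold changes -0.91 and -1.13, edgeR adjusted p = 0.000164 and 0.000315). Of 7 BMP target genes, 1 rose with the set term (Id3) and 0 fell, against 8.59% and 7.89% of all tested genes. Id3 was at 53.9 to 100 CPM in Tgfbr2_KO and 37.5 to 99.6 CPM in WT (edgeR adjusted p = 0.0238 for 0.39 on the log2 scale, SE 0.09). The median log2 fold change of the 10 TGF-β targets was -0.60 with group only and -0.48 with the set term, and that of the 7 BMP targets was -0.19 and 0.14, beside -0.01 and 0.03 over all tested genes.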

How the data were processed

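Bulk RNA-seq of 8 libraries, 4 Tgfbr2_KO and 4 WT, was analysed. The authors deposited estimated counts, 1 value a gene and library, made with salmon, per the name of the deposited table, and they differ in sum between libraries. Per the submitters' processing notes the build was GRCm38 and DESeq2 1.40.1 was used. No source used here gives the salmon version, the annotation or the strand setting. Per the labels' protocols the kit was TruSeq Stranded mRNA, on TRIzol-extracted RNA.

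Counts were rounded to whole numbers, filtered with filterByExpr (minimum count 10, minimum total 15), scaled by TMM and tested with the robust edgeR 4.0.16 quasi-likelihood F-test in R 4.3.3, with Benjamini-Hochberg adjustment over all tested genes. limma 3.58.1 and DESeq2 1.42.0 were alternatives. Fold changes are Tgfbr2_KO over WT, with standard errors (SE) and 95% intervals; an interaction is the log2 fold change in lung-rich minus that in the other libraries. For nearest genes, log2 CPM had a prior count of 2. The members, lists, library sets and tests were chosen with earlier results of these data known. Beside the 10 receptors, genes were named if past the threshold in the group-only or the set-term fit (up to 4 a list by the set-term p), if among the 3 nearest to a receptor (1 of them, for Acvr1, is not reported here), or as markers. The choice of Cdh5, Lyz2 as the Cre locus, Acvr2b, Bmpr1b, Acvr1c, Amhr2 and Hjv was made with their values in view. Alternatives were other scalings, filters and tools, the terms named above, sets of libraries and each library left out.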

Additional observations from a re-analysis of the deposited data

Results flagged for a closer look

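In 20 sets of 4 libraries (10 receptors in 2 genotypes), 7 had a library whose distance to the nearest other exceeded Dixon's critical share of the range. Chance gives about 1 in 20 for a single set. The 20 sets share the same 8 libraries and are not independent, so the 7 cannot be set against that rate. In Tgfbr2_KO, 6 of the 7 were KO 1, the library with most endothelial RNA. KO 1 had already been set apart as lung-rich. KO 1 was at 556.4 CPM for Acvrl1 (next 113), 522.4 for Eng (next 99.1), 693.5 for Bmpr2 (next 127), 82.4 for Tgfbr3 (next 11.8), 35.0 for Bmpr1a (next 2.86) and 45.2 for Acvr1b (next 33.0). In WT, Tgfbr2 was at 473.6 CPM in WT 2, with 542 CPM in the next library.

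The genotype difference differed between the library sets for 3 receptors (edgeR quasi-likelihood test of the interaction, adjusted over 12750 genes). The lung-rich minus other difference was 1.00 for Acvrl1 (0.995 before rounding), 0.74 for Bmpr2 and 0.44 for Acvr1b, and 18.9% of all tested genes were called in that test. KO 1 is the only Tgfbr2_KO library of the lung-rich set, so each value rests on it.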

How the results depend on the processing

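With group only, 25 genes were higher and 13 lower in Tgfbr2_KO. Over the alternatives Tgfbr1 was lower in every fit, and its call depended on the fit. DESeq2's size factors, no filter, a stricter filter and limma-voom changed no receptor's call. With library totals only, Tgfbr1 passed at -1.08 on the log2 scale, with 53 genes higher and 28 lower and 1 receptor lower. DESeq2 gave Tgfbr1 -1.06, 347 genes higher and 180 lower, 1 receptor lower and pathway counts of 4 higher and 7 lower.

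With the library set as a term, Tgfbr1 (-1.19) and Tgfbr3 (0.836) passed, Eng (0.239), Bmpr2 (0.0835) and Bmpr1a (0.252) turned positive, 1095 genes were higher and 1006 lower, 1 receptor was higher and 1 lower, and the pathway counts were 8 higher and 10 lower. With the endothelial sum as a term, Tgfbr1 was -1.18, Eng 0.209, Bmpr2 0.0511 and Bmpr1a 0.0356, with 1069 genes higher and 1084 lower, 1 receptor lower, and 6 pathway genes higher and 11 lower. In the 5 other libraries the values were Tgfbr1 -1.16, Tgfbr2 0.0134, Tgfbr3 0.886, Acvrl1 -0.435, Eng 0.0193, Bmpr2 -0.188 and Acvr1b -0.212, with 2493 genes higher and 2363 lower, 1 receptor higher and 4 lower, and 12 pathway genes higher and 16 lower. In the 3 lung-rich libraries they were Tgfbr1 -1.30, Tgfbr3 0.712, Acvrl1 0.493, Eng 0.556, Bmpr2 0.485, Bmpr1a 0.493 and Acvr1b 0.161, with 443 genes higher and 273 lower, 1 receptor higher and 1 lower, and 6 pathway genes lower. With WT 3 and WT 4 summed and the set as a term they were Tgfbr1 -1.22, Tgfbr3 0.792, Acvrl1 0.00113, Eng 0.274, Bmpr2 0.131 and Bmpr1a 0.240, with 318 genes higher and 491 lower, 1 receptor higher and 1 lower, and 2 pathway genes higher and 7 lower.

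Whether the replicate numbers pair the libraries is not known. Deviations of same-numbered libraries correlated at 0.867, -0.794, 0.694 and 0.753 for replicates 1 to 4. The negative value is that of KO 2 and WT 2, the only same-numbered libraries of unlike sets. These correlations therefore cannot separate pairing from the library set. With the replicate block 0 genes were higher and 0 lower by edgeR (1479 at an unadjusted p under 0.05), and 0 pathway genes were lower. With the block and the set, Tgfbr1 was -1.12, Eng 0.130, Bmpr2 0.0271 and Bmpr1a 0.299, with 42 genes higher, 67 lower and 1 receptor lower, and Tgfbr3 (0.841) no longer passed (edgeR adjusted p = 0.0729). The blocked Tgfbr1 to Tgfbr2 log2 ratio difference was -1.01 with an exact permutation p = 0.125, the smallest that 4 pairs allow.

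Leaving out each library gave log2 fold changes of -1.18 to -0.924 for Tgfbr1, -0.0925 to 0.0543 for Tgfbr2, -1.48 to 0.642 for Tgfbr3, -1.29 to 0.0760 for Acvrl1, -1.18 to 0.363 for Eng, -1.32 to 0.181 for Bmpr2, -2.45 to 0.287 for Bmpr1a and -0.240 to -0.0604 for Acvr1b. It gave 0 to 619 genes higher, 0 to 241 lower, 0 to 2 receptors lower, and 0 to 5 pathway genes higher and 0 to 7 lower. The highest counts came without KO 1, when Tgfbr1 and Acvr1b passed (edgeR adjusted p = 0.0331 and 0.0457); without any other single library 0 genes passed, beside 807 to 1451 at an unadjusted p under 0.05. The ratio difference ranged from -1.17 to -0.926; it missed the threshold without any 1 KO library (exact permutation p = 0.0571), among the 5 other libraries (-1.18) and among the 3 lung-rich libraries (-0.957), for which 0.1 and 0.333 are the smallest exact permutation p-values. Per kb of the longest transcript 5 of 10 receptors kept their rank in WT. The count of 7 receptors higher in each lung-rich library was 6 with DESeq2's size factors and 8 with library totals only, and Acvr1 overlapped between genotypes with library totals only (alternatives chosen after seeing the data). For the interactions, limma-voom kept the calls. The causes of these changes were not tested. Low counts limit Bmpr1a and Tgfbr3 in the 5 other libraries, and intervals cover the spread between libraries only.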
